A study of Saccharomyces cerevisiae with 12 samples.

Results

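The 65 genes described here are named for proteins of the mitochondrial ribosome of budding yeast, 37 of the large subunit and 28 of the small subunit. They were taken by name from the 5656 genes that the array names: every gene whose symbol is MRPL, MRPS or RSM followed by a number, and 11 further MRP genes. All 65 were measured and all 65 were among the 5361 genes tested, each through its brightest probe set. Of the 65 proteins, 40 have a counterpart in the bacterial ribosome, 24 are specific to mitochondrial ribosomes, and RSM22 was put in neither class. RSM22 was also on the planned list of ribosome assembly genes, and it counts with the small subunit here only by its name.

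The mitochondrial ribosome translates the few messenger RNAs that mitochondrial DNA encodes, most of them for subunits of the respiratory chain and the ATP synthase. Its ribosomal RNAs come from mitochondrial DNA, while all its proteins but one, Var1, are encoded in the nucleus, made in the cytosol and imported. Cells without mitochondrial DNA therefore keep the nuclear genes of a ribosome that they cannot assemble, and yeast is known to hold many nuclear genes for mitochondrial proteins low while glucose is plentiful.

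The study compared cells without mitochondrial DNA (ρ0) and cells with it (ρ+) after and before removal of glucose. The 4 groups were ρ0 cells after 4 h without glucose, ρ0 cells in 2% glucose, ρ+ cells after 4 h without glucose, and ρ+ cells in 2% glucose, with 3 biological replicates each. All cultures first grew at 22 °C, with glucose in complete medium, to an optical density of 1 at 600 nm. Part of each culture was harvested there, and the rest was washed, put into complete medium without glucose and shaken. No group was washed and shaken with glucose, so withdrawal of glucose cannot be told apart from washing and the further 4 h of culture. The labels do not name the parent strain or how its mitochondrial DNA was lost.

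RNA from equal numbers of cells was enriched for polyadenylated RNA and hybridised to 12 single-colour Affymetrix arrays. Values are linear MAS5 signals in arbitrary units, scaled by the authors so that the array means, trimmed by 2% at each end, lay between 100.10 and 100.12. A signal above 5.82, the 25th percentile of all signals, counts here as detected. Of the 65 members, 63 were detected on all 12 arrays. MRP20 and RSM22, picked out for this after their values were seen, were detected on 8 arrays each. The strain labels were checked on a mitochondrial gene: OLI1, which encodes an ATP synthase subunit, averaged 0.320 ± 0.0797 in ρ0 cells without glucose, 0.285 ± 0.131 in ρ0 cells with glucose, 128 ± 15.2 in ρ+ cells without glucose and 128 ± 29.3 in ρ+ cells with glucose (SD, n = 3 each). VAR1, which encodes the Var1 protein, had signals no higher than 5.15 on any array and was not tested. Replicates correlated with r between 0.956 and 0.990 across genes. A hybridisation control (CreX) was low on 2 arrays. It read 509 on ρ0 without glucose replicate 1 and 309 on ρ0 with glucose replicate 2, against 624 to 1006 on the other 10 arrays.

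Differences are log2 changes of signal plus a pseudocount of 1.498, which understates the change of dim genes. They were tested with limma over all 5361 genes, and a gene is said to rise or fall where its Benjamini-Hochberg adjusted p was under 0.05. Signals of different probe sets are on different scales, so each gene is compared only with itself. Levels are shares of polyadenylated RNA, in which fewer cells with a transcript and less of it per cell cannot be told apart.

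Across the 4 groups, most mitochondrial ribosomal protein genes had their highest mean signal in ρ0 cells with glucose. This was the highest group for 57 of the 65 members and for 35.0% of all genes tested. No member had its lowest mean there, a position held by 10.3% of all genes. The lowest mean was in ρ0 cells without glucose for 25 members, against 20.7% of all genes. It was in ρ+ cells without glucose for 30 members, against 46.7% of all genes, and in ρ+ cells with glucose for 10 members, against 22.3% of all genes.

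The median of the 65 members on each array, taken as the deviation from each gene's 12-array mean and set relative to all genes, was also highest in ρ0 cells with glucose. It was −0.39, −0.33 and −0.18 in ρ0 cells without glucose, 0.31, 0.17 and 0.49 in ρ0 cells with glucose, −0.12, −0.17 and −0.12 in ρ+ cells without glucose, and 0.01, 0.12 and 0.14 in ρ+ cells with glucose, on the log2 scale. The values without glucose lay below the values with glucose in both strains, without overlap. Of the cultures without glucose, the ρ0 arrays were the lower on this relative measure, while without reference to all genes the members' medians were −0.38, −0.31 and −0.12 in ρ0 cells and −0.29, −0.32 and −0.29 in ρ+ cells, which overlap. The relative group means were −0.30 ± 0.11 and 0.32 ± 0.16 in ρ0 cells without and with glucose, and −0.14 ± 0.026 and 0.093 ± 0.072 in ρ+ cells without and with glucose (SD, n = 3 each). The 80 cytosolic ribosomal protein genes had another order, with means of −0.19 ± 0.036 and −0.098 ± 0.048 in ρ0 cells without and with glucose, and 0.091 ± 0.077 and 0.21 ± 0.046 in ρ+ cells without and with glucose (SD, n = 3 each). Cytosolic ribosomes make the bulk of cell protein, and their genes were lower in ρ0 cells than in ρ+ cells in both media on this measure, while the mitochondrial set was higher in ρ0 cells with glucose.

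**Figure D1:**
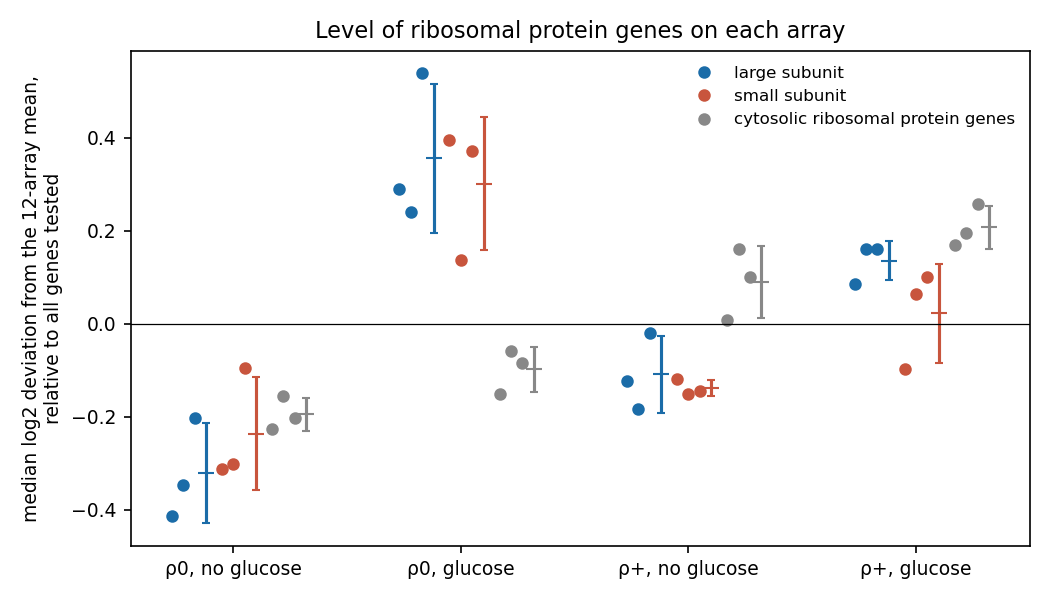
Median log2 deviation from the 12-array mean, relative to all genes tested, for large subunit members (37 genes), small subunit members (28 genes) and cytosolic ribosomal protein genes (80 genes) on each array. Points are arrays, and bars give the mean and SD of 3 replicates. On this relative scale both mitochondrial subunits are highest in ρ0 cells with glucose, and their means are lowest in ρ0 cells without glucose. For the small subunit the arrays without glucose overlap between the strains. They read −0.31, −0.30 and −0.096 in ρ0 cells and −0.12, −0.15 and −0.14 in ρ+ cells.

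The large subunit median minus the small subunit median was −0.085 ± 0.035 in ρ0 cells without glucose, 0.055 ± 0.14 in ρ0 cells with glucose, 0.029 ± 0.084 in ρ+ cells without glucose and 0.11 ± 0.064 in ρ+ cells with glucose (log2, SD, n = 3 each). In ρ0 cells the difference was negative on all 3 arrays without glucose and on 1 of the 3 arrays with glucose.

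On removal of glucose from ρ0 cells, many members of both subunits fell. Of the 65 members, 32 fell and 1 rose, while 12.4% of all genes fell and 4.59% rose. The median change was −0.68 for the members and −0.11 for all genes. In the large subunit 20 of 37 members fell and 0 rose, with a median of −0.76. In the small subunit 12 of 28 fell and 1 rose, with a median of −0.64. Among members with a bacterial counterpart 21 of 40 fell, and among the mitochondria-specific members 11 of 24 fell. Of the members that fell, 15 did so by at least 2-fold, and the share of all genes at that cut is not given here. The array's ribosomal RNA control probe sets also moved with withdrawal: their mean log2 signal was 8.86, 7.82 and 8.38 in ρ0 cells without glucose, against 7.53, 7.91 and 7.14 in ρ0 cells with glucose, and 8.61, 8.50 and 8.71 in ρ+ cells without glucose, against 7.60, 7.17 and 7.08 in ρ+ cells with glucose. These values overlapped in ρ0 cells and not in ρ+ cells, and their part in the member changes was not tested. Replicates did not overlap between the media for 39 members that were lower and 2 that were higher, against 21.2% and 9.44% of all genes.

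The member with the largest fall in ρ0 cells was MRPS8, whose product uS8m is a core protein of the small subunit with a bacterial counterpart. Its signals were 19.7, 18.8 and 30.0 in ρ0 cells without glucose, against 86.5, 54.7 and 109 in ρ0 cells with glucose. It was 3.43-fold lower without glucose (log2 −1.78 ± 0.24 SE, adjusted p = 0.000238, limma), with no overlap between the media.

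MRPL49 encodes bL21m, a large subunit protein with a bacterial counterpart. It had signals of 48.3, 47.6 and 66.6 in ρ0 cells without glucose, against 167, 153 and 224 in ρ0 cells with glucose, which is 3.28-fold lower without glucose (adjusted p = 0.000197, limma). All 3 arrays without glucose lay below all 3 with glucose. MRPL20 encodes mL58, a large subunit protein specific to mitochondria. Its signals were 39.9, 71.4 and 56.6 in ρ0 cells without glucose, against 158, 163 and 204 in ρ0 cells with glucose, a 3.13-fold lower level (adjusted p = 0.000197, limma). The lowest array with glucose was above the highest one without.

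MRPL44, which encodes the mitochondria-specific large subunit protein mL53, had the smallest p of the set in this comparison. Its signals were 32.1, 41.2 and 37.0 in ρ0 cells without glucose, against 107, 105 and 111 in ρ0 cells with glucose. It was 2.86-fold lower without glucose (adjusted p = 4.77e-05, limma), and the replicates of each medium lay close together. MRPL44 is the one member with a second probe set of its own. That dimmer set changed by −0.87 on the log2 scale, against −1.51 for the brighter set.

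Other members with large falls in ρ0 cells came from both subunits. MRP17, the small subunit protein bS6m, averaged 108 ± 11.4 in ρ0 cells without glucose and 273 ± 72.3 in ρ0 cells with glucose (SD, n = 3 each), 2.46-fold lower (adjusted p = 0.000735, limma). MRP10 encodes mS37, a small subunit protein with paired cysteine motifs that is specific to mitochondria. It averaged 78.0 ± 7.59 without glucose and 193 ± 42.7 with glucose in ρ0 cells (SD, n = 3 each), 2.42-fold lower (adjusted p = 0.000313, limma). RSM10, uS10m of the small subunit, read 53.4, 84.3 and 134 in ρ0 cells without glucose, against 185, 193 and 224 in ρ0 cells with glucose (log2 −1.22, adjusted p = 0.00677, limma). Its 3 arrays without glucose were widely spread, and all lay below the arrays with glucose.

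MRP4 was the 1 member that rose in ρ0 cells. It encodes uS2m of the small subunit. Its signals were 52.1, 48.3 and 45.1 in ρ0 cells without glucose, against 21.6, 34.7 and 22.9 in ρ0 cells with glucose. It was 1.83-fold higher without glucose (adjusted p = 0.0437, limma), but the call was lost in 8 of the 12 fits that each left out 1 array. The annotation places another open reading frame, YHL005C, over MRP4, and the array table does not say which of them its probes read.

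**Figure D2:**
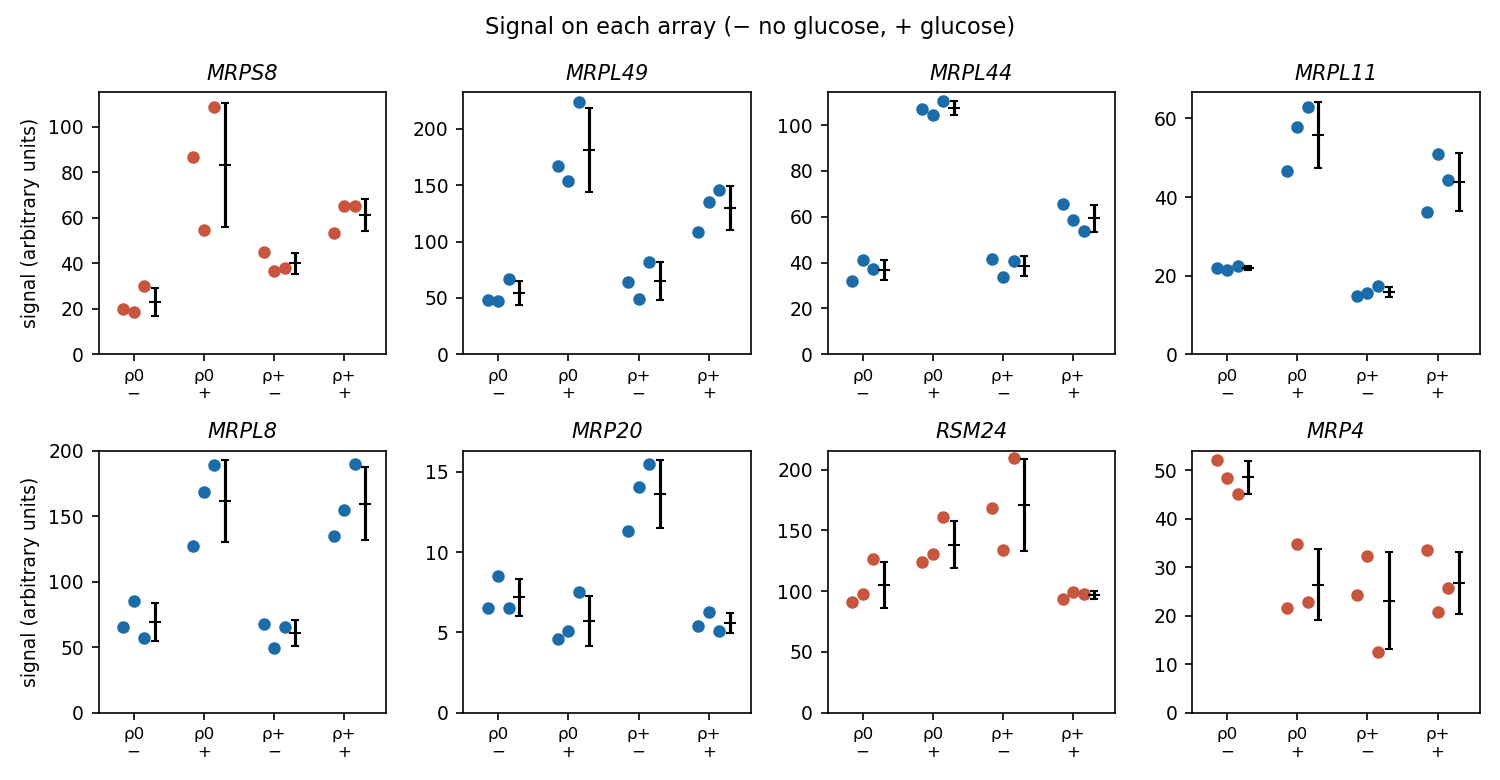
Signal (arbitrary units, axes from 0) of 8 members on each of the 12 arrays; blue marks the large subunit and red the small subunit, and black bars give the mean and SD of 3 replicates in each group. MRPS8, MRPL49, MRPL44, MRPL11 and MRPL8 are lower without glucose in both strains, while MRP20 and RSM24 are high in ρ+ cells without glucose and MRP4 in ρ0 cells without glucose.

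In ρ+ cells, removal of glucose lowered 24 of the 65 members and raised 3, while 22.3% of all genes fell and 10.5% rose. The median change was −0.42 for the members and −0.19 for all genes. The large subunit had 16 of 37 members lower and 2 higher, with a median of −0.54, and the small subunit had 8 of 28 lower and 1 higher, with a median of −0.32. Of the 24 mitochondria-specific members 11 fell, and of the 40 with a bacterial counterpart 13 fell. Replicates did not overlap for 36 members that were lower and 4 that were higher, against 35.1% and 16.5% of all genes. The number that fell depended on the scaling: it was 15 after quantile normalisation, 10 after median centring and 7 after scaling to the array's bacterial polyadenylated control probe sets, where 14.2%, 10.2% and 7.72% of all genes fell. The number that rose was 3, 3 and 2 under the same settings. Without ρ+ with glucose replicate 2 or replicate 3, 13 or 14 members fell, and 13.9% or 14.5% of all genes.

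MRPL11 encodes uL10m, the base of the flexible stalk on which translation factors act. Its signals were 14.8, 15.6 and 17.3 in ρ+ cells without glucose, against 36.3, 50.9 and 44.4 in ρ+ cells with glucose. In ρ0 cells they were 21.9, 21.4 and 22.5 without glucose, against 46.5, 57.9 and 63.0 with glucose. It fell in both strains by similar factors, 2.59-fold lower in ρ+ cells (adjusted p = 4.30e-05, limma) and 2.43-fold lower in ρ0 cells (adjusted p = 0.000279, limma).

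MRPL8, which encodes bL17m near the exit of the peptide tunnel, read 67.5, 49.7 and 65.4 in ρ+ cells without glucose, against 135, 154 and 190.0 in ρ+ cells with glucose. It was 2.58-fold lower in ρ+ cells (adjusted p = 0.000232, limma) and 2.30-fold lower in ρ0 cells (adjusted p = 0.00165, limma). MRPL9, uL3m of the large subunit core, read 86.0, 71.3 and 35.3 in ρ+ cells without glucose, against 136, 163 and 148 in ρ+ cells with glucose. It was 2.43-fold lower in ρ+ cells (adjusted p = 0.00202, limma) and 2.48-fold lower in ρ0 cells (adjusted p = 0.00369, limma). For MRPL8 and MRPL9 all arrays without glucose lay below all arrays with glucose in both strains.

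MRPL49 (log2 −1.003, adjusted p = 0.00323) and MRPL20 (log2 −0.91, adjusted p = 0.00476, both limma) also fell in ρ+ cells. MRPL49 read 64.0, 48.7 and 82.2 in ρ+ cells without glucose, against 109, 135 and 146 in ρ+ cells with glucose, again without overlap. MRPL51, a mitochondria-specific large subunit protein (mL43), averaged 71.1 ± 8.24 in ρ+ cells without glucose and 143 ± 23.4 in ρ+ cells with glucose (SD, n = 3 each; log2 −0.99, adjusted p = 0.00161, limma). Its open reading frame overlaps YPR099C in the annotation.

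Of the small subunit, MRPS9 (uS9m, log2 −1.04, adjusted p = 0.0217), MRP13 (mS44, log2 −0.90, adjusted p = 0.00504) and RSM26 (mS42, log2 −0.83, adjusted p = 0.00719, all limma) fell most in ρ+ cells. MRPS9 read 43.7, 36.7 and 38.9 without glucose, against 54.3, 106 and 98.9 with glucose. Its arrays with glucose were widely spread, and the lowest of them was still above every array without glucose. MRP13 (log2 −0.96) and RSM26 (log2 −0.94) also fell in ρ0 cells. The MRPS9 call was lost in 4 of the 12 fits that each left out 1 array, with adjusted p up to 0.0978.

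The 3 members that rose in ρ+ cells were MRP20, RSM24 and MRPL4. MRP20 encodes uL23m and MRPL4 encodes uL29m, neighbouring proteins around the tunnel exit of the large subunit, and RSM24 encodes mS35 of the small subunit. MRP20 read 11.3, 14.1 and 15.5 in ρ+ cells without glucose, against 5.40, 6.30 and 5.10 in ρ+ cells with glucose, where it was detected on 1 of 3 arrays. It was 2.12-fold higher without glucose (adjusted p = 0.00260, limma). RSM24 read 168, 134 and 209.6 in ρ+ cells without glucose, against 93.4, 99.4 and 97.9 in ρ+ cells with glucose, 1.72-fold higher (adjusted p = 0.00638, limma). For both genes the media did not overlap. MRPL4 read 32.9, 28.5 and 36.8 without glucose, against 21.3, 22.0 and 17.5 with glucose, 1.57-fold higher (adjusted p = 0.0498, limma); this call was lost in 8 of the 12 fits that each left out 1 array.

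A number of members fell in both strains. The 2 withdrawal comparisons share no arrays, and 18 members fell in both, which is 75% of the 24 that fell in ρ+ cells and 56.2% of the 32 that fell in ρ0 cells. Over all genes, 364 fell in both, which is 30.5% of the 1193 that fell in ρ+ cells and 54.7% of the 666 that fell in ρ0 cells. No member rose in both. The 18 include the stalk base protein gene MRPL11, MRPL8, MRPL9, MRPL20, MRPL44, MRPL49 and MRPL51 of the large subunit, and MRP10, MRP13, MRPS16 and RSM26 of the small subunit. Of the other members, 14 fell in ρ0 cells alone by this threshold, 6 in ρ+ cells alone, and 23 passed in neither strain and neither direction. Over the 65 members the 2 log2 changes had a Pearson correlation of 0.54 and a Spearman correlation of 0.57. The points share probe sets and arrays, so this is a description.

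**Figure D3:**
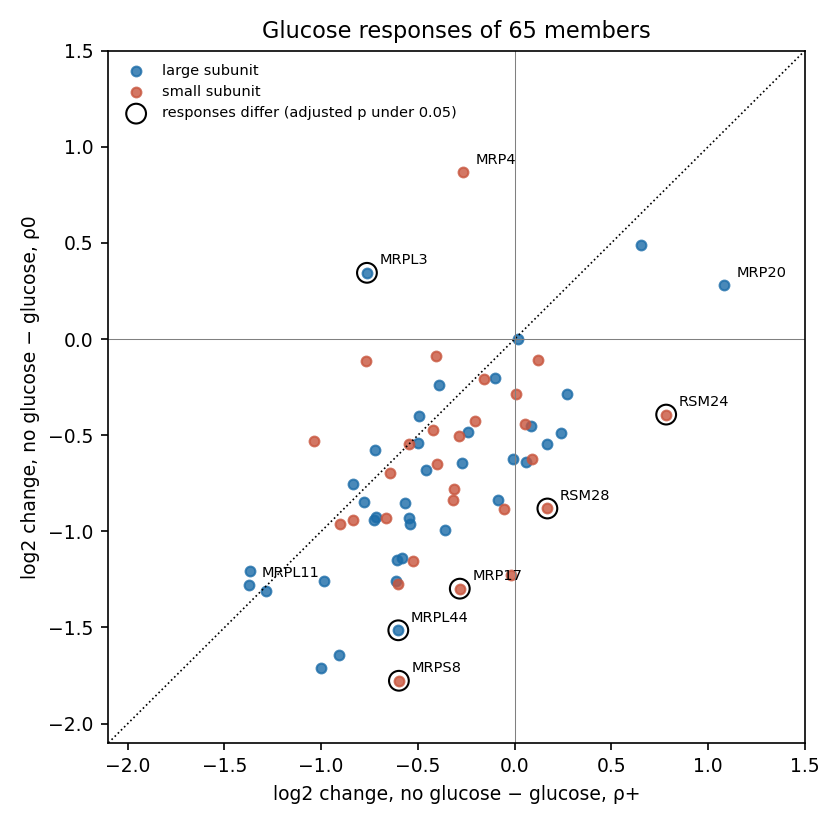
Log2 change on glucose withdrawal in ρ0 cells (vertical axis) against that in ρ+ cells (horizontal axis), 1 point per member, with the line of equal change dotted. Circles mark the 6 members whose 2 responses differed at an adjusted p under 0.05; of these, 5 lie below the line and MRPL3 above it.

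The responses of the 2 strains were compared directly, as the change in ρ0 cells minus the change in ρ+ cells. This difference was negative for 5 members and positive for 1 at the threshold, while it was negative for 5.35% and positive for 1.57% of all genes. At 7.69% and 1.54% of the members, these shares were near those of all genes. Its median was −0.27 for the members, with −0.28 in the large subunit and −0.26 in the small subunit, and 0.09 for all genes. Of the 6 members, 4 encode small subunit proteins. With the 2 arrays of low hybridisation control left out, 4 members were negative and 0 positive. With scaling to the bacterial control probe sets no member passed in either direction, while 3.34% of all genes were negative and 0.168% positive. Leaving out single arrays gave 1 to 7 negative and 0 to 2 positive members, while 3.69% to 6.10% of all genes were negative and 0.597% to 2.50% positive. There was 1 negative member without ρ0 without glucose replicate 1, ρ+ without glucose replicate 1 or ρ+ with glucose replicate 2. RSM24 kept its call in all 12 of these fits.

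RSM24 had the smallest p, with a difference of −1.18 ± 0.27 (SE, adjusted p = 0.0149, limma). It rose in ρ+ cells as given above, while in ρ0 cells its signals were 91.4, 98.0 and 127 without glucose, against 124, 131 and 161 with glucose, which overlap. RSM28, a mitochondria-specific small subunit protein (mS46), had a difference of −1.05 ± 0.26 (SE, adjusted p = 0.0204, limma). It read 33.3, 37.7 and 53.9 without glucose, against 78.7, 70.8 and 79.8 with glucose in ρ0 cells, and 45.2, 46.1 and 38.7 without glucose, against 36.6, 37.7 and 40.6 with glucose in ρ+ cells. Only the ρ0 values separated by medium.

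MRPL44, through its brighter probe set, fell in both strains, and more in ρ0 cells (difference −0.91 ± 0.23 SE, adjusted p = 0.0240, limma). In ρ+ cells it read 41.6, 33.7 and 40.6 without glucose, against 65.4, 58.7 and 53.9 with glucose. Its dimmer probe set changed by −0.06 on the log2 scale in ρ+ cells, with overlapping signals of 10.2, 15.1 and 14.3 without glucose, against 14.3, 11.8 and 15.01 with glucose. MRPS8 had a difference of −1.18 ± 0.33 (SE, adjusted p = 0.0454, limma), with 45.1, 36.7 and 38.0 in ρ+ cells without glucose, against 53.1, 65.3 and 65.4 in ρ+ cells with glucose. MRP17 had a difference of −1.01 ± 0.29 (SE, adjusted p = 0.0457, limma), with means of 161 ± 25.6 without glucose and 196 ± 30.5 with glucose in ρ+ cells (SD, n = 3 each).

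MRPL3 was the member with a positive difference, 1.11 ± 0.31 (SE, adjusted p = 0.0412, limma). It encodes mL44, a large subunit protein with a fold related to RNase III. Its signals were 86.4, 68.1 and 63.9 without glucose, against 53.6, 55.7 and 60.5 with glucose in ρ0 cells, where the change did not pass the test (log2 0.34, adjusted p = 0.293, limma). In ρ+ cells they were 34.5, 47.2 and 24.4 without glucose, against 68.8, 61.0 and 49.1 with glucose, and it fell (log2 −0.76, adjusted p = 0.0150, limma). The media did not overlap in either strain, and the order was opposite.

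**Figure D4:**
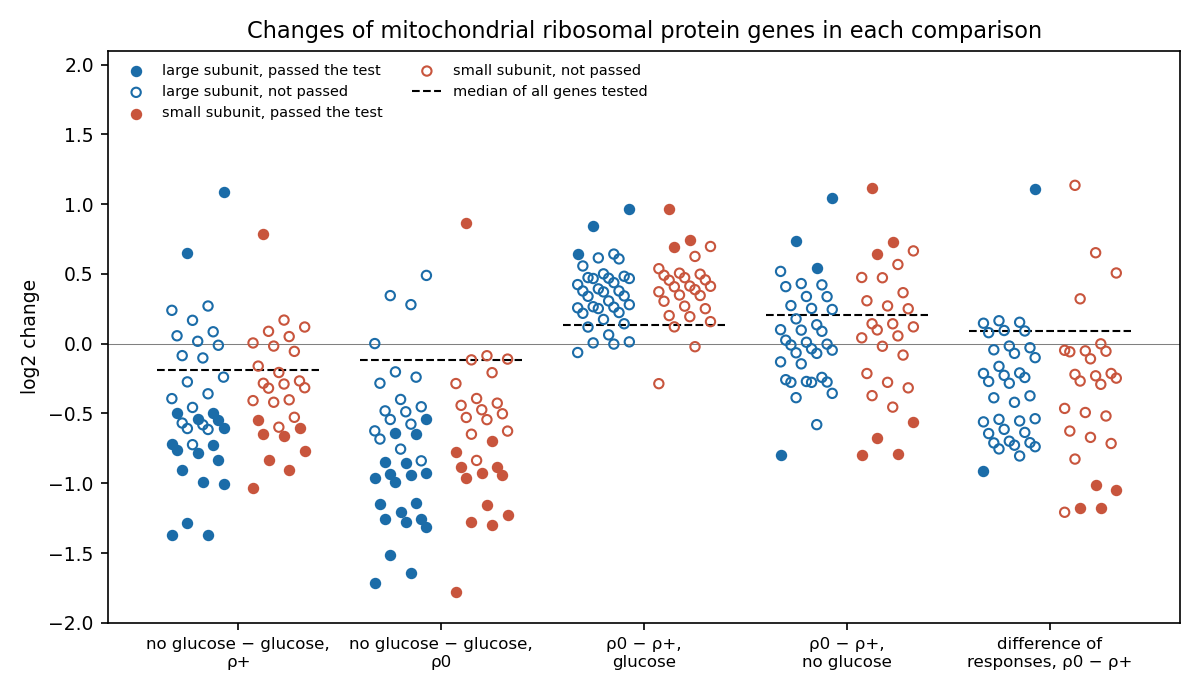
Log2 change of each of the 65 members in the 5 comparisons; filled points passed the test at an adjusted p under 0.05, open points did not, and dashed lines mark the median of all genes tested. In ρ0 cells 32 members fell without glucose; with glucose 6 members were higher in ρ0 cells than in ρ+ cells and 0 lower.

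With glucose, the members that differed between the strains were all higher without mitochondrial DNA. Of the 65 members, 6 were higher in ρ0 cells than in ρ+ cells and 0 were lower, while 5.0% of all genes were higher and 1.45% lower. The median change was 0.38 for the members, with 0.37 in the large subunit and 0.41 in the small subunit, and 0.13 for all genes. Replicates did not overlap between the strains for 30 members that were higher in ρ0 cells and 0 that were lower, against 22.6% and 8.06% of all genes. Of the 6 members that passed, 5 are specific to mitochondria, as are 24 of all 65 members. Under quantile normalisation or median centring 3 members passed as higher. The number was also 3 without ρ0 with glucose replicate 2 or ρ+ with glucose replicate 2 or 3. It was 2 without ρ+ with glucose replicate 1. Of all genes, 2.16% to 3.58% were higher in these fits.

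RSM28 read 78.7, 70.8 and 79.8 in ρ0 cells, against 36.6, 37.7 and 40.6 in ρ+ cells, 1.96-fold higher (adjusted p = 0.00538, limma). MRPL44 read 107, 105 and 111 in ρ0 cells, against 65.4, 58.7 and 53.9 in ρ+ cells, 1.80-fold higher (adjusted p = 0.00605, limma). For both, every ρ0 array was well above every ρ+ array. The dimmer MRPL44 probe set differed by 0.40 on the log2 scale, against 0.84 for the brighter set. MRPL25, which encodes the mitochondria-specific large subunit protein mL59, read 185, 188 and 234 in ρ0 cells, against 90.8, 105 and 112 in ρ+ cells, 1.95-fold higher (adjusted p = 0.0120, limma). The other 3 were MRPS16 (bS16m, log2 0.74, adjusted p = 0.0485), RSM25 (mS23, log2 0.69, adjusted p = 0.0327) and MRPL35 (mL38, log2 0.64, adjusted p = 0.0253, all limma). These calls were lost in 9, 6 and 5 of the 12 fits that each left out 1 array.

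Without glucose, the strains differed in both directions. In ρ0 cells 6 of 65 members were higher and 5 lower than in ρ+ cells, while 20.6% of all genes were higher and 9.40% lower. The members' shares were 9.23% higher and 7.69% lower, the first below and the other near that of all genes. The median change was 0.06 for the members, with 0.01 in the large subunit and 0.11 in the small subunit, and 0.21 for all genes. Replicates did not overlap for 14 members that were higher and 5 that were lower, against 31.4% and 13.5% of all genes. Of the 5 members that were lower, 4 belong to the small subunit, as do 28 of all 65 members. With the 2 arrays of low hybridisation control left out, 8 members were higher and 2 lower. Without ρ0 without glucose replicate 1 no member was lower, against 7.63% of all genes. With quantile normalisation 3 members were higher and 4 lower, against 9.63% and 11.2% of all genes. The sign of the member median depended on the scaling, with −0.08 after quantile normalisation, −0.14 after median centring and 0.16 after scaling to the bacterial control probe sets.

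The members that were higher in ρ0 cells without glucose were MRP4, MRPL3, MRPL35, MRP51, RSM25 and MRPL10. MRP4 read 52.1, 48.3 and 45.1 in ρ0 cells, against 24.2, 32.4 and 12.6 in ρ+ cells, 2.16-fold higher (adjusted p = 0.00829, limma). MRPL3 read 86.4, 68.1 and 63.9 in ρ0 cells, against 34.5, 47.2 and 24.4 in ρ+ cells, 2.06-fold higher (adjusted p = 0.00266, limma). Both genes separated the strains without overlap.

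MRPL35 and RSM25 were the 2 members higher in ρ0 cells in both media, which is 33.3% of each list of 6. Over all genes, 135 were higher in both media, which is 50.4% of the 268 higher with glucose and 12.3% of the 1102 higher without. MRPL35, a protein of the central protuberance of the large subunit, read 49.4, 44.7 and 45.7 in ρ0 cells without glucose, against 29.2, 25.6 and 27.3 in ρ+ cells without glucose (log2 0.74, adjusted p = 0.00332, limma). With glucose it read 59.3, 72.8 and 54.7 in ρ0 cells, against 39.6, 40.9 and 37.0 in ρ+ cells. RSM25 read 37.2, 33.5 and 32.0 in ρ0 cells without glucose, against 19.8, 22.4 and 21.8 in ρ+ cells without glucose (log2 0.64, adjusted p = 0.0155, limma). MRP51, a small subunit protein linked in yeast to the start of translation on mitochondrial messenger RNAs, averaged 35.4 ± 3.44 in ρ0 cells and 20.8 ± 2.79 in ρ+ cells without glucose (SD, n = 3 each; log2 0.73, adjusted p = 0.00526, limma). MRPL10, uL15m, was higher by 0.55 on the log2 scale (adjusted p = 0.0328, limma). The MRPL10 call was lost in 4 and the RSM25 call in 2 of the 12 fits that each left out 1 array, and both were lost after quantile normalisation and median centring.

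The 5 members that were lower in ρ0 cells without glucose were MRP20, RSM10, MRPS8, RSM24 and MRP17. MRP20 read 6.49, 8.53 and 6.53 in ρ0 cells, against 11.3, 14.1 and 15.5 in ρ+ cells, 1.74-fold lower (adjusted p = 0.0178, limma). RSM24 read 91.4, 98.0 and 127 in ρ0 cells, against 168, 134 and 209.6 in ρ+ cells, 1.60-fold lower (adjusted p = 0.0167, limma). MRPS8 read 19.7, 18.8 and 30.0 in ρ0 cells, against 45.1, 36.7 and 38.0 in ρ+ cells, 1.73-fold lower (adjusted p = 0.0210, limma). These 3 genes separated the strains without overlap. MRP17 (log2 −0.56, adjusted p = 0.0491) and RSM10 (log2 −0.79, adjusted p = 0.0358, both limma) were also lower, and the ρ0 and ρ+ signals of RSM10 overlapped. The MRP17 call was lost in 9 of the 12 fits that each left out 1 array, and the other 4 calls in 2 to 4 of them.

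The members are short genes, and the size of the change went with gene length in some comparisons. Lengths are those of the annotated gene, not of the coding sequence alone. They ran from 213 to 1887 bp with a median of 714 bp, against a median of 1221 bp for all genes tested. On glucose withdrawal in ρ0 cells, 22 of 33 members of 714 bp or less fell, with a median change of −0.93. Among the 1283 genes of that length 22.5% fell, with a median of −0.26. Of the 32 longer members 10 fell, with a median of −0.52, while 9.24% of the 4078 longer genes fell, with a median of −0.07. The members thus had lower medians than genes of their own length class in both classes.

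In ρ+ cells the length classes were alike for the members: 11 of 33 shorter members and 13 of 32 longer members fell on withdrawal, against 20.6% and 22.8% of all genes of those classes. Between the strains without glucose, 0 of the shorter members were higher in ρ0 cells and 3 lower, against 7.48% and 17.7% of shorter genes, while 6 of the longer members were higher and 2 lower, against 24.7% and 6.79% of longer genes. Within each length class the member medians of this comparison, −0.13 for shorter and 0.29 for longer members, lay next to those of all genes, −0.11 and 0.31. Across the 65 members log2 change was correlated with the log2 of gene length. The Pearson correlation was 0.46 for withdrawal in ρ0 cells, 0.10 for withdrawal in ρ+ cells and 0.45 for ρ0 against ρ+ without glucose. Over all genes it was 0.097, −0.12 and 0.30.

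Measures of transcript coverage differed between the arrays as well, and the 2 control genes read for it did not go the same way. The signal of the 5′ control probe set of SPT15 divided by that of its 3′ set, which falls when copies of the RNA stop short of its 5′ end, was 0.106 to 0.187 in ρ0 cells without glucose and 0.130 to 0.390 in ρ0 cells with glucose, and 0.182 to 0.194 in ρ+ cells without glucose and 0.239 to 0.368 in ρ+ cells with glucose. On the 2 arrays with low hybridisation controls it was 0.106 (ρ0 without glucose) and 0.130 (ρ0 with glucose). The same ratio for ACT1 was 0.825 and 0.830 on these arrays, the highest of the 12, and 0.509 to 0.710 on the others. The part of coverage in the length pattern and in the member changes was not tested.

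**Figure D5:**
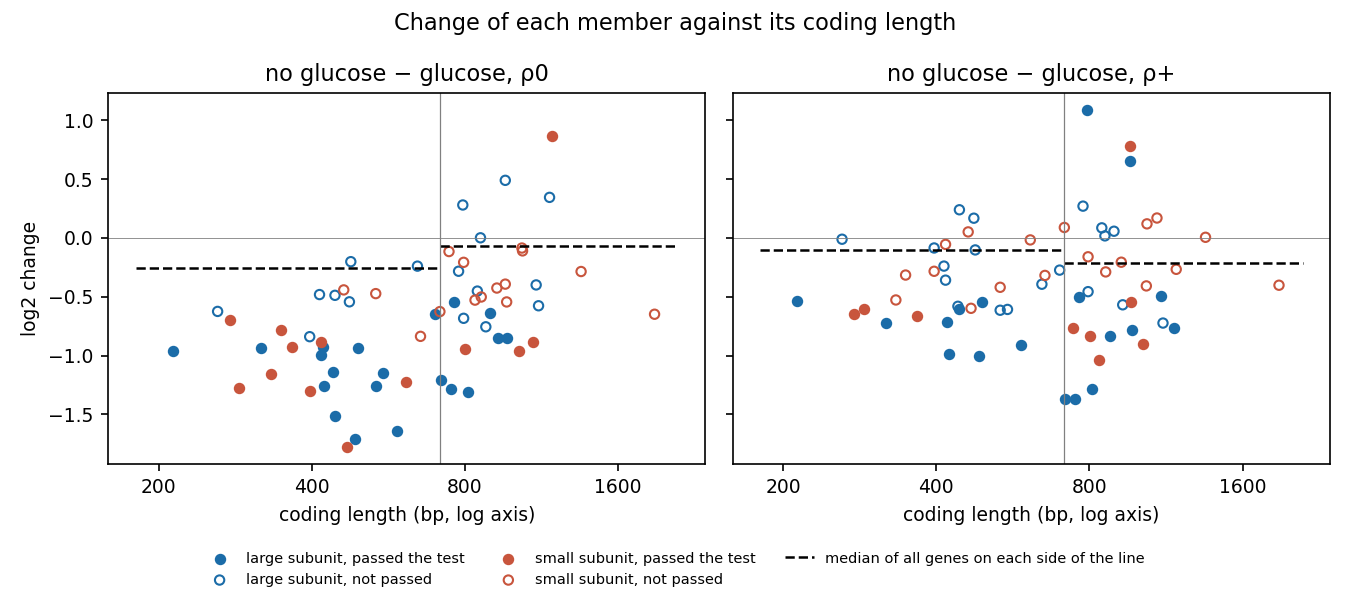
Log2 change on glucose withdrawal in ρ0 cells (left) and ρ+ cells (right) of each member against its gene length in bp (log axis). The axis label says coding length, but the values are lengths of the annotated gene. Filled points passed the test, the vertical line marks 714 bp, and dashed lines give the median of all genes on each side of it. In ρ0 cells 22 of 33 members on the left of the line fell, against 10 of 32 on the right.

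Genes around the mitochondrial ribosome were described from lists of their own. Of 14 ribosomal proteins that the name rule misses, 10 fell on withdrawal in ρ0 cells and 5 in ρ+ cells, 0 rose in either strain, and 3 were higher in ρ0 cells than in ρ+ cells with glucose. Of all genes, 12.4% fell in ρ0 cells, 22.3% fell in ρ+ cells and 5.0% were higher in ρ0 cells with glucose. SWS2, uS13m, was 2.74-fold lower in ρ0 cells without glucose (33.5 ± 7.49 without and 93.9 ± 14.2 with glucose, SD, n = 3 each; adjusted p = 0.000601, limma) and 1.80-fold lower in ρ+ cells (adjusted p = 0.00893, limma). FYV4 (mS41) was 2.64-fold and 1.98-fold lower in ρ0 and ρ+ cells without glucose (adjusted p = 0.00135 and 0.00588, limma). MNP1, bL12m, which forms the stalk on the MRPL11 protein, fell in ρ0 cells (log2 −0.62, adjusted p = 0.0166) and in ρ+ cells (log2 −0.79, adjusted p = 0.00202, both limma).

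Of 9 translation factors of mitochondria that were tested, 2 fell on withdrawal in each strain and 0 rose, against 12.4% of all genes that fell in ρ0 cells and 22.3% in ρ+ cells. IFM1, the initiation factor, and GUF1, an elongation factor of the LepA family, fell in ρ0 cells (log2 −1.06 and −1.07, adjusted p = 0.00486 and 0.0121, limma). MEF1, an elongation factor, and MRF1, the release factor, fell in ρ+ cells (log2 −0.71 and −0.96, adjusted p = 0.0113 and 0.00255, limma). MRF1 read 23.8, 26.2 and 28.2 in ρ0 cells without glucose, against 13.5, 11.9 and 8.16 in ρ+ cells without glucose, 2.21-fold higher (adjusted p = 0.000857, limma).

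Of 9 genes for assembly, ribosomal RNA modification or attachment of the ribosome to the inner membrane, 4 fell on withdrawal in ρ+ cells, 2 fell in ρ0 cells, and 3 were higher in ρ0 cells than in ρ+ cells without glucose. Of all genes, 22.3%, 12.4% and 20.6% did so. MRM1, which methylates the large ribosomal RNA, averaged 35.4 ± 3.89 without and 85.1 ± 7.53 with glucose in ρ+ cells (SD, n = 3 each; adjusted p = 6.72e-05, limma), and also fell in ρ0 cells (log2 −0.93, adjusted p = 0.00173, limma). MBA1, a membrane receptor of the ribosome, fell in ρ0 cells (log2 −1.23, adjusted p = 0.000511) and in ρ+ cells (log2 −0.58, adjusted p = 0.0238, both limma). MDM38, a further inner membrane protein that binds the ribosome, was 2.51-fold higher in ρ0 cells than in ρ+ cells without glucose (71.0 ± 27.7 and 26.5 ± 5.76, SD, n = 3 each; adjusted p = 0.00137, limma). Its signals in ρ0 cells were 103, 51.5 and 58.8, and the 103 came from the array with a low hybridisation control.

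Of 8 regulators tested, 4 fell and 1 rose on withdrawal in ρ+ cells, and 2 fell in ρ0 cells. Of all genes, 22.3% fell and 10.5% rose in ρ+ cells, and 12.4% fell in ρ0 cells. HAP3 encodes a subunit of the complex that activates respiratory genes. It was 2.48-fold lower without glucose in ρ0 cells (24.2 ± 4.28 without and 63.6 ± 19.1 with glucose, SD, n = 3 each; adjusted p = 0.00101, limma), 1.70-fold lower in ρ+ cells (adjusted p = 0.0135, limma), and 1.69-fold higher in ρ0 cells than in ρ+ cells with glucose (adjusted p = 0.0482, limma). SFP1, an activator of ribosome biogenesis genes, fell in ρ+ cells (log2 −0.63, adjusted p = 0.0253, limma). RTG1 and RTG3 form the factor of the retrograde pathway, which answers to loss of mitochondrial function. Without glucose, RTG3 was 2.01-fold higher in ρ0 cells than in ρ+ cells (adjusted p = 0.00370, limma), and RTG1 was lower (adjusted p = 0.00200, limma). RTG1 was detected on 1 of 3 arrays in ρ0 cells without glucose and on 3 of 3 in each other group, so the size of its change is uncertain. It had means of 3.86 ± 2.34 and 8.25 ± 1.15 in ρ0 cells without and with glucose, and 13.1 ± 2.94 and 6.65 ± 0.522 in ρ+ cells without and with glucose (SD, n = 3 each). PUF3, whose protein binds messenger RNAs of many mitochondrial proteins, was not above the detection level in the mean of any group and was not tested.

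Of the 65 members, 45 passed the test in at least 1 of the 5 comparisons and 20 in none. Of all genes tested, 55.03% passed in at least 1. The 20 include MRP7, MRPL1 and MRPL6 of the large subunit, MRPS5 and MRPS12 of the small subunit, and RSM22, counted there by its name. These examples were chosen after their values were seen. The median standard error of a member's log2 change was 0.21, and 0.29 for the difference of responses. The adjusted threshold asked for changes of more than 2 standard errors, and for larger ones where fewer genes passed, as in the difference of responses. MRP17, with a difference of −1.01 ± 0.29 SE, only just passed it (adjusted p = 0.0457, limma). Smaller changes can therefore be missed with 3 arrays a group. RSM22, a protein related to methyltransferases, read 7.23, 5.73 and 4.96 in ρ0 cells without glucose and 13.3, 6.63 and 11.6 in ρ0 cells with glucose. In ρ+ cells it read 4.94, 5.86 and 5.51 without glucose and 6.56, 7.59 and 8.95 with glucose. Most of its arrays without glucose were below the detection level.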

How the data were processed

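For every array, the deposited table gives a signal intensity on a linear scale for each probe set. Per the submitters' processing notes, the authors used MAS5; its version and its target value for scaling were not given. The labels' protocols describe hot phenol extraction, oligo-dT selection, double-stranded cDNA and biotin-labelled cRNA. Of 9335 probe sets, 60 are controls and 6504 name a single gene in the platform annotation, all of them listed in RefSeq's genes for assembly R64. A further 328 name several genes and 2503 none, and neither kind was used. No coordinates are given because no build is stated for the array.

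Each gene was represented by its probe set of highest mean signal. Signals were taken as log2(signal + 1.498), the 10th percentile of all signals, with no further normalisation. Genes with at least 1 group mean above the 25th percentile were tested. A means model over all 12 arrays was fitted with limma 3.58.1 in R 4.3.3 (lmFit, contrasts.fit, eBayes with an intensity trend, 8 residual degrees of freedom), and two-sided p-values were adjusted by Benjamini-Hochberg across the 5361 genes in each of the 5 comparisons. Every adjusted p in the text comes from such a fit. The script was tested on simulated data. With 3 arrays a group, the number of arrays limits the precision.

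The labels call the replicates biological, and no label says that a number marks a shared culture. Between the media of a strain, deviations correlated above 0.1 in 3 of 6 same-numbered pairs, against 1 of 12 pairs with different numbers. The medians were 0.066 and −0.032, and the highest values 0.52 and 0.28. Same-numbered arrays of different strains in the same medium also passed 0.1 in 3 of 6 pairs. These values do not settle whether a number marks a shared culture. The main fit had no block because no label states such pairing. Counts from fits with a replicate block are given below.

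The members, the gene lists and the tests were chosen with earlier results of these data known. Lists are described by counts and medians. Named members were, per comparison, up to 8 called members in each direction with the largest change and no overlap of replicates, the top 3 called members of each subunit, all called members of a direction with at most 5, and members with probe sets that disagree in sign. Of the other lists, up to 5 called genes each were named. The bacterial and mitochondria-specific classes follow the standard ribosomal protein names. Promoter and protein sequences were not analysed here, nor were the mitochondrial ribosomal RNAs. Alternatives were quantile normalisation, median centring, scaling to polyadenylated control probe sets, a pseudocount 4 times as large, no filter on dim genes, the mean of all probe sets of a gene, shared probe sets left out, each comparison's 2 groups alone, a replicate block, both arrays with low hybridisation controls left out, and each array left out in turn.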

Additional observations from a re-analysis of the deposited data

Results flagged for a closer look

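The glucose responses of the strains differed by the interaction test at an adjusted p under 0.05 (limma, ρ0 minus ρ+) for the members and neighbouring genes that follow. Among the 65 members these were RSM24 (−1.18 ± 0.27 SE, adjusted p = 0.0149), RSM28 (−1.05 ± 0.26, adjusted p = 0.0204), MRPL44 (−0.91 ± 0.23, adjusted p = 0.0240), MRPS8 (−1.18 ± 0.33, adjusted p = 0.0454), MRP17 (−1.01 ± 0.29, adjusted p = 0.0457) and MRPL3 (1.11 ± 0.31, adjusted p = 0.0412), all on the log2 scale. MRPL3 was the member whose ρ0 response was the more positive. Outside the name rule, YML6, the large subunit protein uL4m, had a difference of −1.08 ± 0.29 SE (adjusted p = 0.0326, limma), with means of 11.98 ± 2.01 without and 28.1 ± 3.76 with glucose in ρ0 cells, and 14.8 ± 1.22 without and 15.7 ± 3.55 with glucose in ρ+ cells (SD, n = 3 each). The retrograde regulator RTG1 had a difference of −1.80 ± 0.43 SE (adjusted p = 0.0195, limma), with ρ0 cells without glucose above the detection level on 1 of 3 arrays. Of the 6 member calls, RSM24 held with each array left out in turn, MRPL44 and RSM28 were lost in 5 of 12 such fits, MRPL3 and MRP17 in 8 and MRPS8 in 10.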

How the results depend on the processing

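In these paragraphs counts are of the 65 members and medians are of log2 changes. With quantile normalisation, median centring and polyadenylated control scaling, 15, 10 and 7 members fell on withdrawal in ρ+ cells, against 24 as reported. With the control scaling no member rose on withdrawal in ρ0 cells, against 1.79% of all genes. Between the strains with glucose, 3 members were higher in ρ0 cells with quantile normalisation and 3 with median centring, against 2.37% and 2.20% of all genes. Without glucose, 3 were higher with quantile normalisation, against 9.63% of all genes, and 0 were lower with the control scaling, against 5.37%. With both low-control arrays left out 2 members were lower. The difference of responses was positive for 0 members with median centring, with the control scaling and without both low-control arrays. It was negative for 0 with the control scaling. Of all genes, 1.18% were positive with median centring, and 0.168% were positive and 3.34% negative with the control scaling. These settings also moved the median change of all genes, on withdrawal in ρ+ cells to −0.07, 0.02 and −0.11, against −0.19 as reported, and all-gene calls there to 644 higher and 760 lower, 807 and 548, and 426 and 414, against 561 and 1193. With its 2 groups alone, withdrawal in ρ0 cells gave 86 higher and 331 lower genes, against 246 and 666, and 27 members lower. The difference of responses has no such setting.

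With each array left out in turn, 2 to 3 members rose and 13 to 27 fell on withdrawal in ρ+ cells. In ρ0 cells 0 to 1 rose and 27 to 41 fell. Where 13 and 27 members fell in ρ+ cells, 13.9% and 25.3% of all genes fell. Where 27 and 41 members fell in ρ0 cells, 6.72% and 14.3% of all genes fell. Members higher and lower in ρ0 cells than in ρ+ cells ranged over 2 to 7 and 0 to 0 with glucose, and over 4 to 8 and 0 to 5 without glucose. Of all genes, 2.16% to 5.32% were higher and 0.504% to 1.59% lower with glucose, and 13.1% to 23.5% and 7.31% to 10.6% without glucose. Positive and negative differences of responses ranged over 0 to 2 and 1 to 7 members, and over 0.597% to 2.50% and 3.69% to 6.10% of all genes. The member median relative to all genes ranged from −0.31 to −0.16 for withdrawal in ρ+ cells, −0.71 to −0.49 for withdrawal in ρ0 cells, 0.15 to 0.31 between the strains with glucose, −0.21 to −0.09 without glucose and −0.46 to −0.35 for the difference. The large minus small subunit median ranged, in the same order, from −0.22 to −0.078, −0.20 to −0.011, −0.09 to 0.01, −0.13 to −0.07 and −0.17 to 0.090. The last turned sign without ρ+ with glucose replicate 2, to 0.090, against −0.03 as reported, and that between the strains with glucose turned to 0.01 without ρ0 with glucose replicate 1, against −0.04 as reported.

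With each strain and replicate number together as a block, 3 members rose and 29 fell on withdrawal in ρ+ cells, and 1 rose and 41 fell in ρ0 cells. In that fit the difference was positive for 1 and negative for 7. The strains were compared in another fit, with the number alone as a block, shared by both strains. In ρ0 cells 8 were higher and 0 lower with glucose, and 9 and 6 without glucose. Of all genes, 11.8% rose and 24.9% fell in ρ+ cells, and 6.85% rose and 15.9% fell in ρ0 cells. With glucose 7.13% were higher and 2.18% lower in ρ0 cells, and without glucose 23.8% and 10.6%. The difference was positive for 2.84% and negative for 6.72% of all genes. Of the 44 named member calls, 21 held under every setting and 0 changed direction. The causes of these shifts were not tested. Signals under the detection level limit MRP20 and RSM22.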
